A study of Mus musculus with 18 samples.

Results

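GFP-positive cells sorted on days 7 and 8 of cardiac differentiation were compared with GFP-positive cells sorted on days 5 and 6. The 8 arrays were chosen by their titles out of 18 in the series, 4 for each stage. All of these cells came from the mouse embryonic stem cell line D3 carrying enhanced green fluorescent protein (GFP) behind an Nkx2-5 enhancer fragment and the hsp68 minimal promoter. The transgene was introduced by electroporation with a hygromycin resistance vector. Clones whose GFP appeared in beating areas were kept, and the labels do not say which clone gave which array. The cells grew as embryoid bodies, floating aggregates started in hanging drops without leukemia inhibitory factor. Their medium held ascorbic acid, and they were dissociated with trypsin and separated by fluorescence-activated cell sorting. Each stage held days 5 and 6 or days 7 and 8, with 1 array of batch 1 and 1 of batch 2 on each day. GFP-negative cells of the same days and batches gave another 8 arrays, used here for comparison. The remaining arrays, of cardiomyocytes selected with G418 through a Myh6 promoter, were not compared here. All 18 arrays entered the choice of probe set for each gene, the offset before log2 and the level of the signal filter. Whether the batches were separate cultures is not given in the labels. The p-values therefore measure the spread among these 8 samples alone. The 2 days of a stage counted as replicates, so that spread includes change between days, and the rest may be technical.

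Heart muscle arises from mesoderm that passes through the primitive streak, and Nkx2-5 is a homeobox transcription factor switched on as mesoderm cells become cardiac precursors. As precursors turn into cardiomyocytes they assemble sarcomeres, the repeated units of actin and myosin filaments that contract, and they gain the channels and pumps that move calcium. Embryoid bodies also form endothelium, primitive blood and endoderm, the layer that gives rise to gut and yolk sac lining.

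Values are MAS5 signals on a linear scale, and where 2 values follow each other for a day, batch 1 comes first. No probe set was matched to GFP here, so the sort was checked through Nkx2-5. In GFP-positive cells the Nkx2-5 signal was 170.0 and 60.6 on day 5, 184 and 67.4 on day 6, 292 and 216 on day 7 and 249 and 323 on day 8. In GFP-negative cells it was 95.2 and 57.3 on day 5, 107 and 43.5 on day 6, 106 and 75.5 on day 7 and 76.3 and 79.4 on day 8. GFP-positive cells were above GFP-negative cells on each day in each batch, but on day 5 of batch 2 only by a few units. Within GFP-positive cells all 4 late arrays were above all 4 early arrays, by 1.25 ± 0.27 (log2 ± SE; adjusted p = 0.0287). The change was 0.59 in batch 1 and 1.91 in batch 2.

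The early arrays were not alike. Day 5 of batch 2 had the lowest correlations with the late arrays, between 0.844 and 0.902, while r over all pairs of the 8 arrays lay between 0.844 and 0.984 across genes, which are not independent. On that array Eomes, Mixl1 and Mesp1, transcription factors of the primitive streak and the first mesoderm, had signals of 2226, 1679.9 and 1527. On the other 7 GFP-positive arrays they were at most 95.1, 32.1 and 82.1. On the first principal component day 6 of batch 1 lay at 1.28 and day 7 of batch 2 at 3.74, so the batches reached similar positions on different days. The array medians were 18.2 to 21.3 on days 5 and 6 and 23 to 29.3 on days 7 and 8, with no overlap. For Gapdh, the 3' to 5' signal ratio that tracks RNA integrity was 1.17 to 1.57 early and 1.28 to 1.64 late. The part of these measures in the results was not tested.

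**Figure D1:**
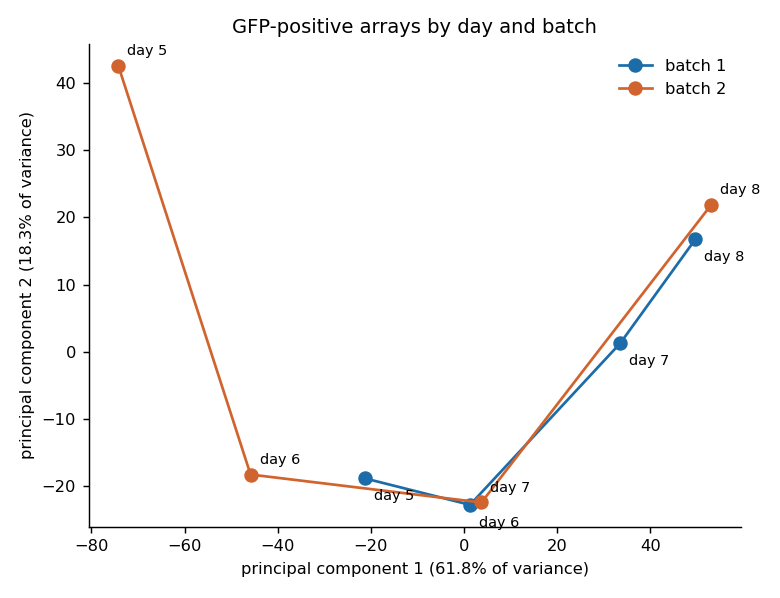
Position of each GFP-positive array on the first principal component (61.8% of variance) and the second (18.3% of variance) of the log2 values of the genes tested. Each point is 1 array, lines join the days of a batch, and days 7 and 8 lie to the right of days 5 and 6 within each batch.

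Of 12372 genes tested, 1130 (9.13%) were higher and 640 (5.17%) were lower on days 7 and 8 at an adjusted p below 0.05 (limma, batch as a block, n = 4 and 4), 1770 in all (14.3%). All 4 late arrays were above all 4 early arrays for 1337 genes (10.8%) and below them for 1032 (8.34%). Counts of calls in the gene lists below are to be read beside these shares of 9.13% higher and 5.17% lower. The median log2 difference over all genes tested was 0.08. With arrays scaled to equal medians that median was -0.33 and the split became 724 higher against 2943 lower, so each count of higher and lower genes depends on the scaling. The filter could be met through 1 stage alone: of the higher genes 259 had fewer than 2 early arrays at 22.5 units, and of the lower genes 9 had fewer than 2 late arrays there. For such genes the filter itself favoured a difference, so their values are a description. Those named below include Smpx, Slc8a1, Cacna1c, Cacna1h, Cacnb2, Nppb, Ppargc1a, Ptprc, Gp9, Ppbp and Apoc2 among the higher. Lum, Synpo2, Igfbp1, Ccl3 and Cx3cr1 are also among the higher, and Tubb3 and Hoxd1 are among the lower. The calls also depended on single arrays. Without day 5 of batch 1, day 6 of batch 2 or day 8 of batch 1, 0 genes passed, while 3144, 3651 and 3163 had an unadjusted p below 0.05. Each gene list described below then also had 0 calls. Without day 5 of batch 2 the count was 1073, without day 7 of batch 1 it was 718 and without day 8 of batch 2 it was 522. In each of these fits all 1770 genes kept their direction and had an unadjusted p below 0.05. The genes were chosen with the same arrays, so this is no separate support. Differences below are log2(signal + 8.7), late minus early, with the standard error (SE) of the limma fit. This scale understates changes of dim genes, and with 4 arrays per stage the precision is limited. In these bulk samples more cells of a type and more RNA per cell cannot be told apart.

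Genes of the contractile apparatus rose from days 5 and 6 to days 7 and 8. Of 27 sarcomere genes tested, 19 were higher and 0 lower, and all 27 differences were positive, with a median of 2.13 beside 0.08 for all genes tested. All 4 late arrays were above all 4 early arrays for 20 of the 27, beside 10.8% of all genes. The other 3 of the 30 genes of the list, Myom2, Myoz2 and Lmod2, did not reach the signal filter. Of the 27 tested, 2 had fewer than 2 early arrays at the filter, and of the 19 higher genes Smpx alone did. The count of positive differences and the median are in that part a description. The signal of Myh6, the alpha myosin heavy chain and main motor of adult mouse heart, was 729.5 and 19.5 on day 5, 1078 and 37.3 on day 6, 2921 and 1193 on day 7 and 2478 and 2593 on day 8. The late arrays were all above the early ones, and both early arrays of batch 2 were far below those of batch 1. Myh6 rose by 3.60 ± 0.73 (adjusted p = 0.0261), with a change of 1.59 in batch 1 and 5.62 in batch 2. Myh7, the beta myosin heavy chain of the embryonic heart, had signals of 1115 and 9.1 on day 5, 1394 and 79.9 on day 6, 3339 and 1726 on day 7 and 3426 and 3589 on day 8 and rose by 3.70 ± 0.88 (adjusted p = 0.0339). Both heavy chains stood above all early arrays by day 7 in each batch.

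Among the light chains, which bind the neck of the myosin head, Myl3 ranged from 9.3 to 1207 on days 5 and 6 and 1841 to 3399 on days 7 and 8, and it rose by 3.84 ± 0.87 (adjusted p = 0.03). Myl2, the ventricular regulatory light chain, was 405 and 8.4 on day 5, 528 and 21.7 on day 6, 1897 and 1022 on day 7 and 1225 and 1131 on day 8, a rise of 3.64 ± 0.69 (adjusted p = 0.0249). Day 7 of batch 1 gave its highest value, and no late array overlapped an early one. Myl4, the embryonic and atrial essential light chain, rose by 2.30 ± 0.58 (adjusted p = 0.0366). Myl7, the atrial regulatory light chain, already had signals of 409 to 2263 on days 5 and 6 and 2963 to 4044 on days 7 and 8, and its difference of 1.32 ± 0.39 did not pass (adjusted p = 0.0542).

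Among thin filament genes, Actc1, cardiac alpha actin, was 3062 and 412 on day 5, 4280.2 and 239.6 on day 6, 6664 and 5119.7 on day 7 and 6079.9 and 6013 on day 8 and rose by 2.46 ± 0.58 (adjusted p = 0.0334). Tpm1, the tropomyosin that lies along actin, was 2322 and 963 on day 5, 2489.6 and 883 on day 6, 3950.2 and 3314 on day 7 and 3356 and 3077 on day 8 and rose by 1.19 ± 0.22 (adjusted p = 0.0249). The late arrays of both genes were above all early ones. Tnnt2, the cardiac troponin that anchors the calcium switch to tropomyosin, was 2482 and 5.9 on day 5, 2733 and 328 on day 6, 4625 and 2777 on day 7 and 3278 and 3375 on day 8. Its difference of 3.02 ± 1.13 did not pass (adjusted p = 0.0985), although no late array overlapped an early one. Tnnc1, the calcium-binding troponin, had a difference of 1.92 ± 0.55 (adjusted p = 0.0503), and Tnni1, the slow inhibitory troponin, one of 2.00 ± 0.71 (adjusted p = 0.0876). Tnni3, the inhibitory troponin of mature heart, passed at 1.83 ± 0.36 (adjusted p = 0.0255) with signals of only 4.7 to 172.

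Genes that build the frame of the sarcomere changed as well. Ttn, the giant protein that spans from Z-disc to M-band, was 434 and 13.0 on day 5, 554 and 22 on day 6, 1866 and 868 on day 7 and 1763 and 1353 on day 8 and rose by 3.64 ± 0.62 (adjusted p = 0.0249). Csrp3, a muscle LIM protein at the Z-disc, was 160.4 and 16.3 on day 5, 134 and 32.0 on day 6, 573 and 202 on day 7 and 508 and 372 on day 8 and rose by 2.48 ± 0.32 (adjusted p = 0.0249). Actn2, the alpha-actinin that crosslinks actin at the Z-disc, was 39.5 and 14.2 on day 5, 84.8 and 14.3 on day 6, 222 and 116 on day 7 and 185 and 249.8 on day 8 and rose by 2.31 ± 0.36 (adjusted p = 0.0249). In all of these, early batch 2 was lowest and no late array overlapped an early one. Myom1, an M-band protein, rose by 2.43 ± 0.39 (adjusted p = 0.0249), and Mybpc3, the myosin-binding protein C, by 2.20 ± 0.48 (adjusted p = 0.0281). Tcap, the titin cap, had signals of only 25.3 to 40.8 and a difference of 0.22 ± 0.19 that did not pass (adjusted p = 0.441). The sum of the sarcomere signals was 3790 to 24115 on the early arrays and 30177 to 45612 on the late ones. Leaving out 1 array gave 0 to 17 higher sarcomere calls, with 0 without day 5 of batch 1, day 6 of batch 2 or day 8 of batch 1, 13 without day 7 of batch 1 and 6 without day 8 of batch 2. Without batch as a block 4 passed.

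Promoter sequence was available from RefSeq (build GRCm38.p6) for 18 of the 19 sarcomere genes that passed, as 25 promoters. The 250 bases before each start site were searched on both strands for the CArG box and the MEF2 site, motifs bound by the muscle factors SRF and MEF2. A CArG box was found in 6 of the 25 promoters, of 5 genes, and in 1.47% of all 32851 promoters of the table. The Ldb3 promoters among the 6 overlap and hold the same site. A MEF2 site was found in 2 of the 25 and in 2.92% of all promoters. A match is a description of the letters, not a measured binding site. Actc1 and Myl3, a thin filament gene and a light chain, are shown for the CArG box and Mybpc3 for the MEF2 site, with the match in capitals. They lie at chr2:114052876-114053125 on the minus strand, chr9:110763428-110763677 on the plus strand and chr2:91117894-91118143 on the plus strand.
Actc1: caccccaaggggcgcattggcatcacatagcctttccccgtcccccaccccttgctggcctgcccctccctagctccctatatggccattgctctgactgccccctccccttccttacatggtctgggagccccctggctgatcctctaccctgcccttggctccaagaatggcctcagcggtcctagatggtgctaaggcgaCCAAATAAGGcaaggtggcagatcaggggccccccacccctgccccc
Myl3: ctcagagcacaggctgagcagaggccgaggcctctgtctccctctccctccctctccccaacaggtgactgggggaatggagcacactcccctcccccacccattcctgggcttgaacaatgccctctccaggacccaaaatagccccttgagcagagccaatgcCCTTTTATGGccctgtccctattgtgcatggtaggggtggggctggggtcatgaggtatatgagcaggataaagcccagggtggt
Mybpc3: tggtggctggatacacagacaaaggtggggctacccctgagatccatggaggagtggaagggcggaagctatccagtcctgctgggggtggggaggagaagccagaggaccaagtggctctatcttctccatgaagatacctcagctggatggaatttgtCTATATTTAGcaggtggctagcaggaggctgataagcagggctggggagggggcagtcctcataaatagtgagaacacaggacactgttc
The CArG box of Actc1 began 47 bases before the start site and that of Myl3 85 bases before it, while the MEF2 site of Mybpc3 began 90 bases before.

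Calcium handling genes and ion channels rose in part. Of 19 tested, 9 were higher and 0 lower, with a median of 1.04. Of the 9, Slc8a1, Cacna1c, Cacna1h and Cacnb2 had fewer than 2 early arrays at the filter. The count and the median are therefore no support for a direction. Slc8a1, the sodium-calcium exchanger that removes calcium after a beat, was 22.4 and 7.0 on day 5, 20.4 and 8.9 on day 6, 79.8 and 50.6 on day 7 and 74.0 and 56.8 on day 8 and differed by 1.71 ± 0.19 (adjusted p = 0.0249). Its late arrays were all above its early ones, and the early arrays of batch 2 were the lowest. Cacna1h, a T-type calcium channel, was 21.6 and 13.8 on day 5, 36.8 and 6.6 on day 6, 106 and 56.5 on day 7 and 177 and 227 on day 8 and differed by 2.36 ± 0.41 (adjusted p = 0.0249). Cacna1c, the L-type channel that triggers contraction, was 20.3 and 17.5 on day 5, 23.6 and 12.4 on day 6, 49.9 and 34.0 on day 7 and 80.1 and 51.5 on day 8 and differed by 1.17 ± 0.23 (adjusted p = 0.025). Jph2, which holds the membrane next to the sarcoplasmic reticulum, rose by 1.16 ± 0.25 (adjusted p = 0.0276), and Kcnh2, a repolarising potassium channel, by 1.12 ± 0.26 (adjusted p = 0.0306). Bves, a membrane protein of the heart, rose by 0.95 ± 0.17 (adjusted p = 0.0249).

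The reticulum pump Atp2a2 was bright throughout, at 2357 to 2942 on days 5 and 6 and 2372 to 2866 on days 7 and 8, with a difference of 0.02 ± 0.11 (adjusted p = 0.909). Ryr2, the calcium release channel, was 77.9 and 2.5 on day 5, 82.3 and 10.6 on day 6, 115 and 60.4 on day 7 and 83.6 and 88.9 on day 8, and its difference of 1.37 ± 0.44 did not pass (adjusted p = 0.0656). The gap junction genes Gja1 and Gjc1 differed by -0.13 ± 0.27 (adjusted p = 0.767) and -0.12 ± 0.21 (adjusted p = 0.731). Leaving out 1 array gave 0 to 9 higher calls in this list, with 0 without the 3 arrays that removed all calls, 6 without day 5 of batch 2 and 4 without day 7 of batch 1 or day 8 of batch 2.

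Few cardiac transcription factors passed. Of 24 tested, 4 were higher and 1 lower, beside 9.13% and 5.17% of all genes, with a median of 0.53. All late arrays were above all early ones for 3 and below them for 2, beside 10.8% and 8.34% of all genes. Nkx2-5, described above, was among the higher ones. Isl1, a factor of second heart field precursors, was 242 and 80.2 on day 5, 244 and 79.1 on day 6, 325 and 251 on day 7 and 407 and 492 on day 8 and rose by 1.30 ± 0.32 (adjusted p = 0.0357). Its late arrays were all above its early ones. Irx5, an Iroquois factor that patterns ion currents in the ventricle, was 134 and 29.6 on day 5, 139 and 42.2 on day 6, 171 and 136 on day 7 and 220.2 and 138 on day 8 and rose by 1.10 ± 0.26 (adjusted p = 0.0339). Hopx, a homeodomain protein without DNA binding, was 360.3 and 133 on day 5, 499 and 234 on day 6, 683 and 406 on day 7 and 544 and 557 on day 8 and rose by 0.95 ± 0.25 (adjusted p = 0.0418). Irx5 and Hopx overlapped between the stages. For Irx5 both late arrays of batch 2 were below day 6 of batch 1, and for Hopx day 7 of batch 2 was.

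Tbx20, a T-box factor of the forming heart, was 586 and 484 on day 5, 559 and 503 on day 6, 399 and 410.0 on day 7 and 276 and 329.5 on day 8 and fell by 0.59 ± 0.16 on the log2 scale (adjusted p = 0.0406), with all late arrays below all early ones. Gata4, an early activator of cardiac genes, was 167 and 393 on day 5, 153 and 148 on day 6, 182 and 149 on day 7 and 263 and 412 on day 8, with a difference of 0.24 ± 0.37 (adjusted p = 0.689). Mef2c, a factor that activates muscle genes, had 28.1 on day 5 of batch 2 and between 191 and 877 on the other arrays, and it did not pass at 1.52 ± 0.68 (adjusted p = 0.151). Myocd, the coactivator of SRF, differed by 1.41 ± 0.44 (adjusted p = 0.0627). Hand2 and Gata6 had differences of 0.28 ± 0.22 (adjusted p = 0.419) and 0.48 ± 0.20 (adjusted p = 0.12). With equal array medians the list had 2 higher and 3 lower calls, and without batch as a block 0 higher and 1 lower. It had 2 higher calls without day 5 of batch 2 and 0 without day 8 of batch 2.

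**Figure D2:**
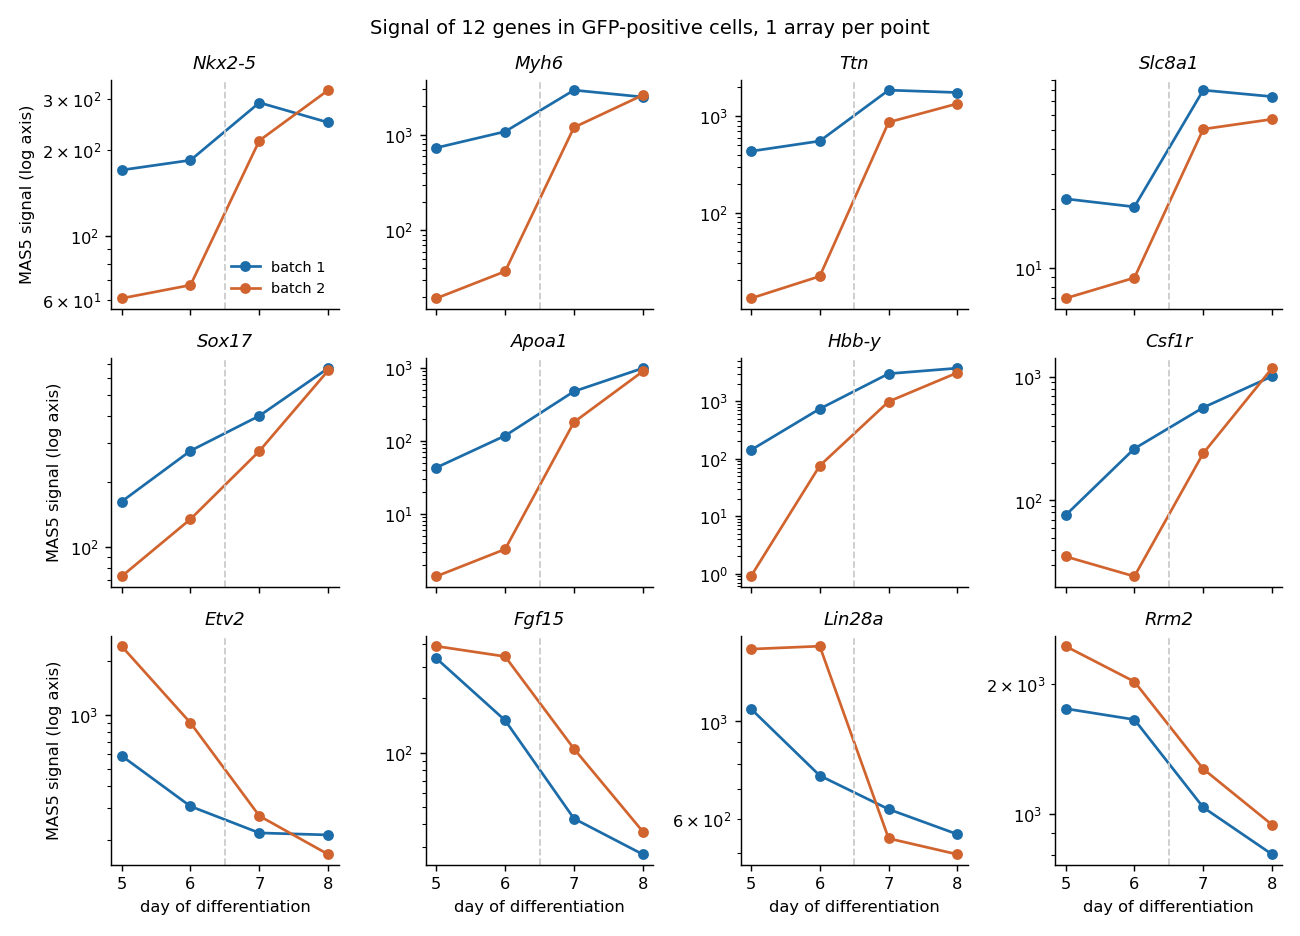
MAS5 signal (log axis) of 12 genes in GFP-positive cells against the day of differentiation, 1 array per point, with batch 1 in blue, batch 2 in orange and a dashed line between the stages. Nkx2-5, Myh6, Ttn and Slc8a1 step up between days 6 and 7, most in batch 2, while Sox17, Apoa1 and Csf1r go on to day 8 and Etv2, Fgf15, Lin28a and Rrm2 are lower late.

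Of 16 genes for natriuretic peptides and muscle energy metabolism, 7 were higher and 0 lower, with a median of 1.10. Of the 16, 6 had fewer than 2 early arrays at the filter, so the count and the median are no support for a direction. Lpl, the lipase that frees fatty acids from lipoproteins, was 567 and 195 on day 5, 872 and 343 on day 6, 1860.1 and 876 on day 7 and 2459 and 2313 on day 8 and rose by 2.01 ± 0.34 (adjusted p = 0.0249). Fabp3, which carries fatty acids inside heart muscle, was 206 and 60.6 on day 5, 197 and 71.6 on day 6, 421 and 265 on day 7 and 347 and 379 on day 8 and rose by 1.51 ± 0.26 (adjusted p = 0.0249). Cox6a2, the muscle form of a cytochrome oxidase subunit, was 52.9 and 16.8 on day 5, 114 and 23.7 on day 6, 216 and 127 on day 7 and 148 and 137 on day 8 and rose by 1.70 ± 0.31 (adjusted p = 0.0249). All late arrays were above all early ones for each of them. Lpl is also made by macrophages, and in GFP-negative cells its change was 2.97. Nppb, brain natriuretic peptide, differed by 1.44 ± 0.31 from signals of 3.2 to 13.1 (adjusted p = 0.0275). It and Ppargc1a were the 2 of the 7 with fewer than 2 early arrays at the filter. Nppa, atrial natriuretic peptide, was 9.9 to 20.5 early and 7.8 to 36.3 late, with a difference of 0.44 ± 0.35 (adjusted p = 0.417). Mb, myoglobin, was at 1.3 to 2.6 early and 1.8 to 36.6 late and did not pass (adjusted p = 0.053). Without day 7 of batch 1 or day 8 of batch 2 the list had 4 higher calls.

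Signalling genes of the heart field showed no common direction. Of 23 tested, 5 were higher and 1 lower, beside 9.13% and 5.17% of all genes. The median of 0.08 turned to -0.28 with equal array medians and to -0.14 with quantile normalization. Bmp2, a bone morphogenetic protein that induces cardiac fate, was 736 and 1212 on day 5, 563 and 1014 on day 6, 368 and 492 on day 7 and 345 and 207 on day 8 and fell by 1.30 ± 0.29 on the log2 scale (adjusted p = 0.0289), with every late array below every early one. Hey1, a target of Notch, was 263 and 372 on day 5, 431 and 153 on day 6, 688 and 411 on day 7 and 882 and 749 on day 8 and rose by 1.19 ± 0.30 (adjusted p = 0.0381). Crabp2 and Rarb, a carrier and a receptor of retinoic acid, rose by 2.15 ± 0.44 (adjusted p = 0.0264) and 1.24 ± 0.30 (adjusted p = 0.0343). Tgfb2 and Vcan, a growth factor and a proteoglycan of the cardiac jelly, rose by 1.06 ± 0.26 (adjusted p = 0.0357) and 0.82 ± 0.19 (adjusted p = 0.031). Bmp4 differed by -0.93 ± 0.30 and did not pass (adjusted p = 0.0678). The list had 1 higher call without batch as a block or without day 8 of batch 2, 2 without day 7 of batch 1 and 3 without day 5 of batch 2.

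Endothelial genes rose in part. Of 28 tested, 7 were higher and 1 lower, beside 9.13% and 5.17% of all genes. In all 25 differences were positive, with a median of 1.14. All late arrays were above all early ones for 3 of the 28, beside 10.8% of all genes. Emcn, a sialomucin of the endothelial surface, was 43.1 and 10.4 on day 5, 105 and 10.1 on day 6, 175 and 93.9 on day 7 and 307 and 270.0 on day 8 and rose by 2.40 ± 0.44 (adjusted p = 0.0249). Sox17, a transcription factor of endothelium and endoderm, was 162 and 72.9 on day 5, 278 and 134 on day 6, 403 and 277 on day 7 and 669 and 653 on day 8 and rose by 1.63 ± 0.35 (adjusted p = 0.0271). Both overlapped between the stages through day 7 of batch 2. Flt1, a receptor for vascular endothelial growth factor, was 169 and 197 on day 5, 230.5 and 213 on day 6, 442 and 259 on day 7 and 867 and 968 on day 8 and rose by 1.43 ± 0.38 (adjusted p = 0.0412). Vwf, which binds platelets to the vessel wall, rose by 2.20 ± 0.59 (adjusted p = 0.042), and Mmrn2, a matrix protein of vessels, by 2.78 ± 0.73 (adjusted p = 0.0394).

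Etv2, which starts the endothelial and blood programme, went the other way. Its signal was 589.5 and 2420.0 on day 5, 308 and 900.5 on day 6, 218 and 272 on day 7 and 213 and 166 on day 8, and it fell by 1.85 ± 0.44 on the log2 scale (adjusted p = 0.034), with every late array below every early one. Kdr, the growth factor receptor that marks vascular and cardiac precursors, was 1179 and 3145 on day 5, 1152 and 1352 on day 6, 1373 and 1195 on day 7 and 1852 and 1495 on day 8, with a difference of -0.09 ± 0.30 (adjusted p = 0.869). Pecam1 and Cdh5, junction proteins that define endothelium, had differences of 1.10 ± 0.42 (adjusted p = 0.102) and 0.76 ± 0.48 (adjusted p = 0.302). The summed endothelial signal was 7663 to 10994 early and 9487 to 17799.7 late, where the stages overlapped. Leaving out 1 array gave 0 to 9 higher calls in this list, with 0 without the 3 arrays that removed all calls and 2 without day 7 of batch 1 or day 8 of batch 2. Without batch as a block 4 were higher and 0 lower.

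Blood genes rose in part. Of 21 tested, 7 were higher and 1 lower, beside 9.13% and 5.17% of all genes. The median was 0.78, with 0.02 in batch 1 and 1.73 in batch 2. Of the 21, 3 had fewer than 2 early arrays at the filter, all among the 7 higher genes. The count and the median are therefore no support for a direction. Hbb-y, an embryonic beta-like globin, was 142 and 0.9 on day 5, 739.5 and 75.7 on day 6, 3022 and 989 on day 7 and 3770.0 and 3151 on day 8 and rose by 4.65 ± 0.85 (adjusted p = 0.0249). Hbb-bh1, another embryonic globin, was 79.5 on day 5 of batch 2 and between 7022 and 10549 on the other 7 arrays, and it did not pass (adjusted p = 0.314). Globin genes are near-identical copies, so probe sets may share signal. Csf1r, a growth factor receptor of macrophages, and Tyrobp, an adaptor of immune receptors, rose by 3.08 ± 0.57 (adjusted p = 0.0249) and 2.71 ± 0.46 (adjusted p = 0.0249). Pf4, a platelet chemokine, was 94.6 and 16.4 on day 5, 126 and 58.3 on day 6, 374 and 194 on day 7 and 1099.6 and 1265 on day 8 and rose by 3.05 ± 0.62 (adjusted p = 0.0261).

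Gata2, a factor of blood stem and progenitor cells, was 371 and 470.5 on day 5, 227 and 535 on day 6, 191 and 199 on day 7 and 178 and 149 on day 8 and fell by 1.06 ± 0.23 on the log2 scale (adjusted p = 0.0281). All its late arrays were below all its early ones. Tal1 and Lmo2, partners in the same early factor complex, had differences of -0.63 ± 0.23 (adjusted p = 0.0947) and -0.66 ± 0.24 (adjusted p = 0.09). The summed blood signal was 3134 to 24319 early and 25830.0 to 28709 late, and day 5 of batch 2 was the lowest. Blood genes were present in GFP-negative cells too, with a median change of 1.90 there, and the change was larger in GFP-positive cells for 2 of the 21. Without day 5 of batch 2 the list median was 0.27, with 11 of 21 differences positive, 5 genes higher and 2 lower. Without day 7 of batch 2, 7 were higher and 4 lower. Of the 7 higher genes, Ptprc, Gp9 and Ppbp had fewer than 2 early arrays at the filter.

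Endoderm genes rose in the late GFP-positive cells as well. Of 18 tested, 13 were higher and 0 lower, all 18 differences were positive, and the median was 1.94. Of the 18, 5 had fewer than 2 early arrays at the filter, so the 18 positive differences and the median are a description. Apoa1, the main protein of high-density lipoprotein, was 43.2 and 1.4 on day 5, 118 and 3.3 on day 6, 479 and 182 on day 7 and 996 and 902 on day 8 and rose by 4.17 ± 0.61 (adjusted p = 0.0249). Rbp4, the retinol carrier of plasma, was 922 and 80.2 on day 5, 1909.9 and 312 on day 6, 5548 and 2167 on day 7 and 6085 and 5710.5 on day 8 and rose by 3.25 ± 0.58 (adjusted p = 0.0249). In both, every late array was above every early one. Afp, alpha-fetoprotein of yolk sac and fetal liver, was 977 and 0.7 on day 5, 559 and 169 on day 6, 2926 and 495 on day 7 and 4917 and 4055 on day 8 and rose by 3.74 ± 1.02 (adjusted p = 0.0435), with an overlap because day 7 of batch 2 lay below both early arrays of batch 1. Apob and Apom, further lipoprotein components, rose by 3.36 ± 0.67 (adjusted p = 0.0258) and 3.09 ± 0.53 (adjusted p = 0.0249).

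Regulators of endoderm were among them. Hnf4a, a nuclear receptor of visceral endoderm and liver, was 33.5 and 17.3 on day 5, 57.4 and 15.4 on day 6, 114 and 87.4 on day 7 and 188 and 210.4 on day 8 and rose by 2.05 ± 0.34 (adjusted p = 0.0249). Foxa2, a forkhead factor of definitive endoderm, was 106 and 41.0 on day 5, 153 and 68.4 on day 6, 282 and 148 on day 7 and 354 and 282 on day 8 and rose by 1.52 ± 0.26 (adjusted p = 0.0249). Hnf4a had no overlap between the stages, while Foxa2 on day 7 of batch 2 was below day 6 of batch 1. Dab2 and Cubn, endocytic proteins of visceral endoderm, rose by 1.94 ± 0.49 (adjusted p = 0.0366) and 1.59 ± 0.42 (adjusted p = 0.04). Alb, albumin of the liver, was between 7.5 and 38.6, with a difference of 0.39 ± 0.36 (adjusted p = 0.491). The summed endoderm signal was 401 to 7533 early and 8395 to 23779 late. All 18 changes were larger in GFP-positive than in GFP-negative cells, where the median was 0.35. The signal filter used the GFP-positive arrays alone, so this count is a description. In the test of that difference the lowest adjusted p in the list was 0.0856. In a fit chosen after seeing the data, with the 2 fractions of a day and batch as a pair, 7 of the 18 passed. Over all genes 1.73% did. Apoa1, Rbp4 and Foxa2 were among the 7, and so was Apoc2. This count rests on the same filter and is a description as well. Apoc2 was the only one of the 13 higher genes with fewer than 2 early arrays at the filter. Leaving out 1 array gave 0 to 15 higher calls, with 0 without the 3 arrays that removed all calls.

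All 13 endoderm genes that passed had promoters in the table, 18 in all. The letters GTTAAT, a partial site of the liver factor HNF1, were found on either strand in 6 of the 18, in 4 of the 25 sarcomere promoters and in 6.43% of all promoters. AGATAA, a form of the GATA site, was found in 2 of these 18 and in 5 of the 25 sarcomere promoters, beside 9.99% of all. Afp (chr5:90490464-90490713, plus strand) and Apoc2 (chr7:19677942-19678191, minus strand) are shown because they are secreted products of endoderm with the first of these motifs, in capitals.
Afp: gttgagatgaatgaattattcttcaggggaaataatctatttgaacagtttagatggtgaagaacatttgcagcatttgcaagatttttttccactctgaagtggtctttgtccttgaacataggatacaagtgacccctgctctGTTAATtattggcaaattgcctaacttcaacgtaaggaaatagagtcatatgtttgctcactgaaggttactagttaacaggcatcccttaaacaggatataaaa
Apoc2: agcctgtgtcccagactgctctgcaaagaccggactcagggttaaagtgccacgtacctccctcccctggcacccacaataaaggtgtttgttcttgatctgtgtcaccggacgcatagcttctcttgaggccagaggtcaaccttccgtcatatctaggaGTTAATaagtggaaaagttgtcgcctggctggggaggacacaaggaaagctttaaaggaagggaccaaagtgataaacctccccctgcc
The match began 105 bases before the start site in Afp and 89 bases before it in Apoc2.

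**Figure D3:**
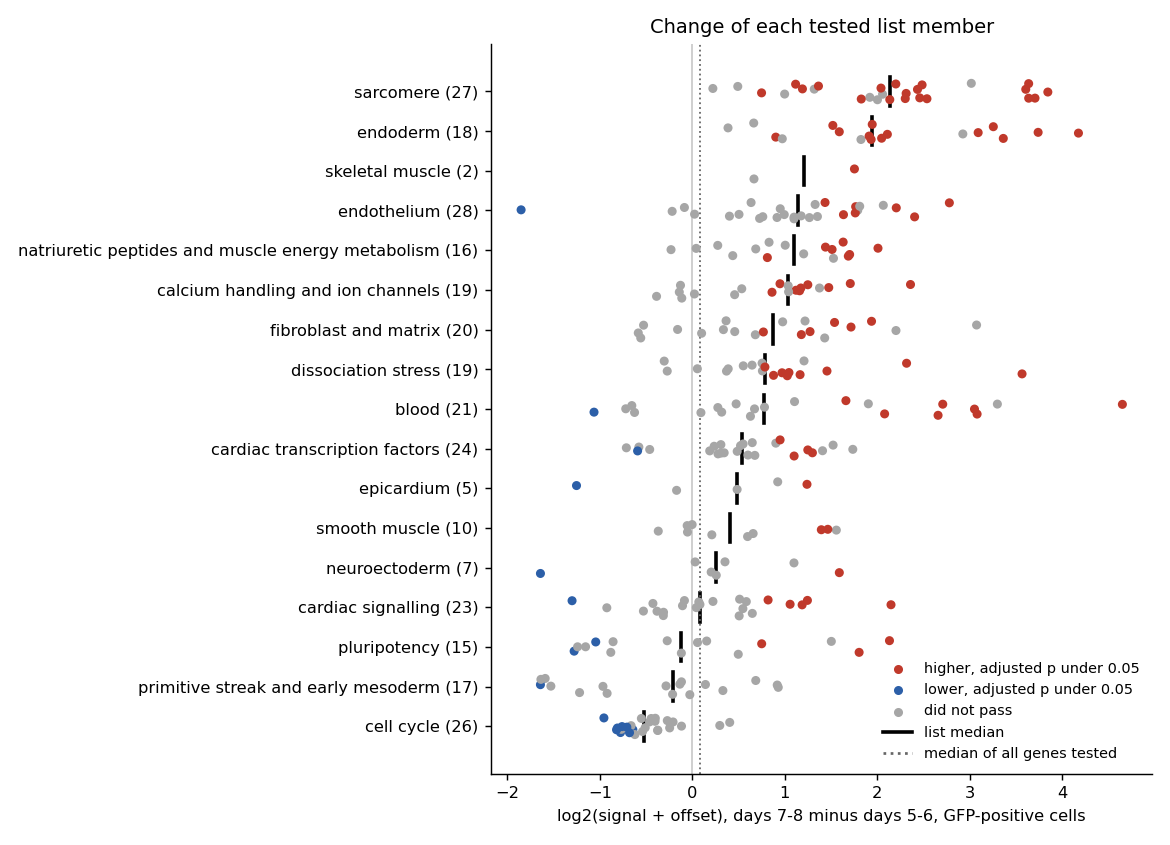
Log2 difference (days 7 and 8 minus days 5 and 6, GFP-positive cells) of each tested member of 17 gene lists, with the number tested in brackets. Red and blue points passed higher or lower, the bar is the list median and the dotted line the median of all genes tested, 0.08. Sarcomere (median 2.13) and endoderm (1.94) lie furthest right and cell cycle (-0.52) furthest left.

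Pluripotency genes split by direction. Of 15 tested, 3 were higher and 2 lower, beside 9.13% and 5.17% of all genes, with a median of -0.12. Of the 15, 4 had fewer than 2 early arrays at the filter and 2 had fewer than 2 late arrays, so the median is in that part a description. Lin28a, an RNA-binding protein of stem cells and early embryos, was 1069.5 and 1464 on day 5, 752 and 1486 on day 6, 630.2 and 540.4 on day 7 and 552 and 497 on day 8 and fell by 1.05 ± 0.20 on the log2 scale (adjusted p = 0.0249). Dnmt3b, the DNA methyltransferase of the early embryo, was 1215 and 2155 on day 5, 1288 and 1583 on day 6, 746 and 983 on day 7 and 447 and 453 on day 8 and fell by 1.28 ± 0.26 on the log2 scale (adjusted p = 0.0261). Every late array was below every early one for both. Pou5f1, the core stem cell factor Oct4, was 306 on day 5 of batch 2 and at most 24.9 elsewhere, and did not pass (adjusted p = 0.443). Nanog, a second core factor, did not reach the signal filter. The 3 that rose, Sox2, Klf4 and Tfcp2l1, also act in endoderm or epithelium. Sox2 was 65.3 and 25.3 on day 5, 66.0 and 22.6 on day 6, 175 and 51.1 on day 7 and 308 and 242 on day 8 and rose by 1.80 ± 0.40 (adjusted p = 0.0291), while Klf4 rose by 0.75 ± 0.16 (adjusted p = 0.0268) and Tfcp2l1 by 2.13 ± 0.43 (adjusted p = 0.0259). Without day 8 of batch 2 the list had 1 higher and 1 lower call.

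Primitive streak genes were near background on most arrays of both stages. Of 17 tested, 0 were higher and 1 lower, beside 9.13% and 5.17% of all genes, with a median of -0.21. Of the 17, 4 had fewer than 2 early arrays at the filter and 3 had fewer than 2 late arrays, so the median is in that part a description. The lower one was Lhx1, a factor of head mesoderm. Lhx1 was 96.3 and 708 on day 5, 63.2 and 153 on day 6, 37.0 and 63.9 on day 7 and 35.3 and 54.2 on day 8 and fell by 1.64 ± 0.46 on the log2 scale (adjusted p = 0.0471). Eomes and Mesp1 had differences of -1.22 ± 1.09 (adjusted p = 0.466) and -1.64 ± 0.93 (adjusted p = 0.25), which rested on day 5 of batch 2. Without that array the list had 1 higher and 1 lower gene and a median of 0.08. Of 7 neuroectoderm genes tested, 1 was higher and 1 lower, beside 9.13% and 5.17% of all genes. Pax6, a factor of eye, brain and pancreas, rose by 1.59 ± 0.31 to signals of 53.6 to 91.2 (adjusted p = 0.0255), and Tubb3, a neuronal tubulin, differed by -1.64 ± 0.27 from at most 56.3 (adjusted p = 0.0249). Pax6 did not pass without batch as a block (adjusted p = 0.0535) or without day 8 of batch 2 (adjusted p = 0.0505). Lhx1 did not pass without batch as a block (adjusted p = 0.0929), without any 1 of 6 arrays (adjusted p between 0.0674 and 0.125) or with no signal filter (adjusted p = 0.0621).

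Of 20 genes of fibroblasts and matrix, 6 were higher and 0 lower, beside 9.13% and 5.17% of all genes, with a median of 0.87. Of the 20, 3 had fewer than 2 early arrays at the filter, Lum of the 6 higher among them, and 1 had fewer than 2 late arrays. The count and the median are in that part a description. Sparc, a collagen-binding matrix protein, was 1258 and 824 on day 5, 1454 and 942 on day 6, 2617 and 1565 on day 7 and 3078 and 3004 on day 8 and rose by 1.18 ± 0.20 (adjusted p = 0.0249). Dcn, a small proteoglycan that orders collagen fibrils, rose by 1.27 ± 0.29 (adjusted p = 0.0298), and the related Lum differed by 1.94 ± 0.36 (adjusted p = 0.0249). The median change of the list was larger in GFP-negative cells, at 1.66. Col3a1, a fibrillar collagen, was 263 and 0.6 on day 5, 718 and 69.0 on day 6, 744 and 765 on day 7 and 1107 and 1091 on day 8 and did not pass at 3.07 ± 0.90 (adjusted p = 0.0529).

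Other muscle and epicardial markers were sparse. Of 10 smooth muscle genes, 2 were higher and 0 lower, beside 9.13% and 5.17% of all genes. The median of 0.40 became -0.01 with equal array medians. Myl9, a regulatory light chain of smooth muscle, rose by 1.39 ± 0.34 (adjusted p = 0.035), and Synpo2, an actin-binding protein of muscle, differed by 1.46 ± 0.38 (adjusted p = 0.0392). The list had 0 calls without batch as a block, with the random block, without day 7 of batch 1 and without day 8 of batch 2, and 1 without day 6 of batch 1. Acta2, smooth muscle actin that is also made by early cardiomyocytes, was 289 to 4449 early and 4313 to 6047 late and did not pass (adjusted p = 0.102). Acta1, skeletal alpha actin, which embryonic heart also makes, was 133 and 81.3 on day 5, 266 and 38.8 on day 6, 592 and 228 on day 7 and 378 and 382 on day 8 and rose by 1.75 ± 0.34 (adjusted p = 0.0249), a call lost without batch as a block (adjusted p = 0.0518). The skeletal regulators Myod1 and Myog did not reach the signal filter. Of 5 epicardial genes, Krt19, an epithelial keratin, rose by 1.24 ± 0.32 (adjusted p = 0.0394) and Lrrn4 fell by 1.25 ± 0.28 on the log2 scale (adjusted p = 0.029). Krt19 did not pass without batch as a block, with the random block, without the variance trend or without any 1 of the 8 arrays except day 7 of batch 2, with adjusted p between 0.0545 and 0.117. Lrrn4 did not pass without day 7 of batch 1 (adjusted p = 0.0521), day 8 of batch 2 (adjusted p = 0.0672) or any of the 3 arrays that removed all calls.

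Part of the cell cycle genes fell. Of 26 tested, 0 were higher and 8 lower, beside 9.13% and 5.17% of all genes, and 24 differences were negative. The median was -0.52, with -0.48 in batch 1 and -0.55 in batch 2. Rrm2, a subunit of the enzyme that makes deoxyribonucleotides, was 1754 and 2449 on day 5, 1654 and 2027 on day 6, 1034 and 1270.5 on day 7 and 805 and 943 on day 8 and fell by 0.96 ± 0.14 on the log2 scale (adjusted p = 0.0249). Mcm5, part of the helicase that opens replication origins, was 1254 and 1542 on day 5, 1347 and 1539.9 on day 6, 752 and 1209 on day 7 and 622 and 734 on day 8 and fell by 0.81 ± 0.16 on the log2 scale (adjusted p = 0.0261). Plk1, a kinase of mitosis, was 835 and 1283 on day 5, 846 and 1129 on day 6, 593 and 742 on day 7 and 507 and 544 on day 8 and fell by 0.76 ± 0.14 on the log2 scale (adjusted p = 0.0249). No late array overlapped an early one for any of them, and day 7 of batch 2 was the highest late array. Mki67, the proliferation antigen, was 2758 and 2178 on day 5, 3509 and 2925 on day 6, 2789 and 3506 on day 7 and 1963 and 1794 on day 8 with a difference of -0.21 ± 0.23 (adjusted p = 0.564). The number of lower calls in this list was 21 with equal array medians and 10 with quantile normalization. Leaving out 1 array gave 0 to 15 lower calls, with 0 without the 3 arrays that removed all calls, 15 without day 7 of batch 2, 5 without day 5 of batch 2 or day 6 of batch 1 and 4 without day 7 of batch 1 or day 8 of batch 2.

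Genes that respond within minutes to dissociation and heat rose in part. Of 19 tested, 9 were higher and 0 lower, beside 9.13% and 5.17% of all genes. The median was 0.78 in GFP-positive and 0.60 in GFP-negative cells. Hspa1a, an inducible heat shock protein, was 53.0 and 23.4 on day 5, 71.1 and 19.4 on day 6, 1152 and 68.3 on day 7 and 932 and 1026 on day 8 and rose by 3.56 ± 0.66 (adjusted p = 0.0249), with day 7 of batch 2 at the level of the early arrays. Zfp36, which binds unstable messenger RNA, rose by 1.46 ± 0.30 (adjusted p = 0.0262), and Fos, an immediate early factor, was 985 and 886 on day 5, 996 and 814 on day 6, 1564 and 3301 on day 7 and 1635 and 1469 on day 8 and rose by 1.03 ± 0.25 (adjusted p = 0.034). The summed signal of the list was 12451 to 15543 early and 17197 to 19902 late, with no overlap. The list had 5 higher calls without day 5 of batch 2 or day 7 of batch 1 and 3 without day 8 of batch 2. Its part in the other results was not tested.

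Outside the lists, Igfbp1 and Nepn had the largest differences among the genes named by rule. Igfbp1, which binds insulin-like growth factors and is made by liver, was 12.8 and 1.5 on day 5, 39.0 and 14.0 on day 6, 964 and 40.3 on day 7 and 3416 and 2796 on day 8 and differed by 5.22 ± 1.09 (adjusted p = 0.0268). Nepn, nephrocan, a leucine-rich repeat protein of foregut endoderm, was 28.1 and 1.2 on day 5, 74.6 and 11.1 on day 6, 949.5 and 84.9 on day 7 and 2431 and 2324 on day 8 and rose by 4.92 ± 0.86 (adjusted p = 0.0249). In both, day 7 of batch 2 was the lowest late array and still above all early ones. Cav1, the coat protein of caveolae, rose by 3.71 ± 0.76 (adjusted p = 0.0262) and Igfbp3 by 3.55 ± 0.63 (adjusted p = 0.0249). Ccl3, a macrophage chemokine, differed by 3.38 ± 0.63 (adjusted p = 0.0249).

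The largest falls included growth factors and regulators of early mesoderm. Fgf3, a fibroblast growth factor of the early embryo, was 362 and 767 on day 5, 72.4 and 419 on day 6, 47.2 and 60.1 on day 7 and 10.6 and 30.2 on day 8 and fell by 2.94 ± 0.54 on the log2 scale (adjusted p = 0.0249). Fgf15, another member of the family, was 334 and 390.4 on day 5, 151 and 342 on day 6, 43.0 and 105 on day 7 and 27.2 and 36.4 on day 8 and fell by 2.41 ± 0.33 on the log2 scale (adjusted p = 0.0249). All late arrays were below all early ones for both. Rspo3, a secreted activator of WNT signalling, was 1175 and 1656 on day 5, 618 and 1994 on day 6, 409.9 and 537 on day 7 and 307 and 287 on day 8 and fell by 1.72 ± 0.30 on the log2 scale (adjusted p = 0.0249). Msx2, a homeobox target of bone morphogenetic proteins, fell by 1.64 ± 0.38 on the log2 scale (adjusted p = 0.0306), and Phlda2, an imprinted growth regulator, by 1.91 ± 0.42 (adjusted p = 0.0286). Apcdd1, an inhibitor of WNT signalling, fell by 1.5 ± 0.34 on the log2 scale (adjusted p = 0.03), and Rgs5, a regulator of G protein signals, by 1.57 ± 0.25 (adjusted p = 0.0249). Each of the genes in this paragraph also had a lower late mean in GFP-negative cells, with changes from -2.16 for Fgf3 to -1.20 for Rgs5.

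The median change of the sarcomere list was 0.50 from day 5 to day 6, 1.86 from day 6 to day 7 and 0.06 from day 7 to day 8. For endoderm the same steps were 0.54, 1.07 and 0.99, and for endothelium 0.88, 0.33 and 0.80. Cell cycle genes had steps of 0.03, -0.33 and -0.47. These steps are medians over both batches, and differences between the lists were not tested.

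The change between stages was larger in batch 2 for 25 of the 27 sarcomere genes, with a median of 0.83 in batch 1 and 3.33 in batch 2. In the test of the difference between batches 0 genes of 12372 passed (limma, adjusted p below 0.05), while 651 (5.26%) had an unadjusted p below 0.05, 19 of the 27 sarcomere genes among them. All 27 had the same sign in both batches. For endoderm the medians were 1.43 and 2.50, and for endothelium 0.60 and 1.69. This test had 4 residual degrees of freedom.

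GFP-negative cells changed over the same days, with 893 genes (7.22%) higher and 590 (4.77%) lower. The sarcomere list had a median change of 1.23 there, with 7 higher calls, beside 2.13 in GFP-positive cells, and 23 of 27 changes were larger in GFP-positive cells. In the test of the difference between the fractions 0 of 12372 genes passed (limma, adjusted p below 0.05), while 1469 (11.9%) had an unadjusted p below 0.05. That fit held the batch as a block but not the day that both fractions shared. With each day and batch pair as a block, chosen after seeing the data, 214 genes passed (1.73%). Of these, 192 had the more positive change in GFP-positive cells, and 2724 of all genes had an unadjusted p below 0.05. The signal filter used the GFP-positive arrays alone, so genes bright only in GFP-negative cells were left out. Counts of larger changes in GFP-positive cells are therefore a description. Of the 27 sarcomere genes only Tnnc1 passed with the pairs, and 20 had an unadjusted p below 0.05. The 3 genes with the lowest p were Marveld2, a protein of tight junctions, 9030622O22Rik and Grb14, an adaptor of the insulin receptor, each with adjusted p = 0.0856 (0.028, 0.0185 and 0.0387 with the pairs). Marveld2 changed by 1.71 in GFP-positive and -0.81 in GFP-negative cells. Irx5 and Foxa2 had adjusted p = 0.0856 and 0.0856 in this test, and 0.0422 and 0.0441 with the pairs. Nkx2-5 changed by 0.20 in GFP-negative cells (adjusted p of the difference = 0.226, and 0.0431 with the pairs). Without day 7 of batch 2 of the GFP-positive cells 307 genes passed the test without pairs, and without day 6 of batch 1 of the GFP-negative cells 234 passed.

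**Figure D4:**
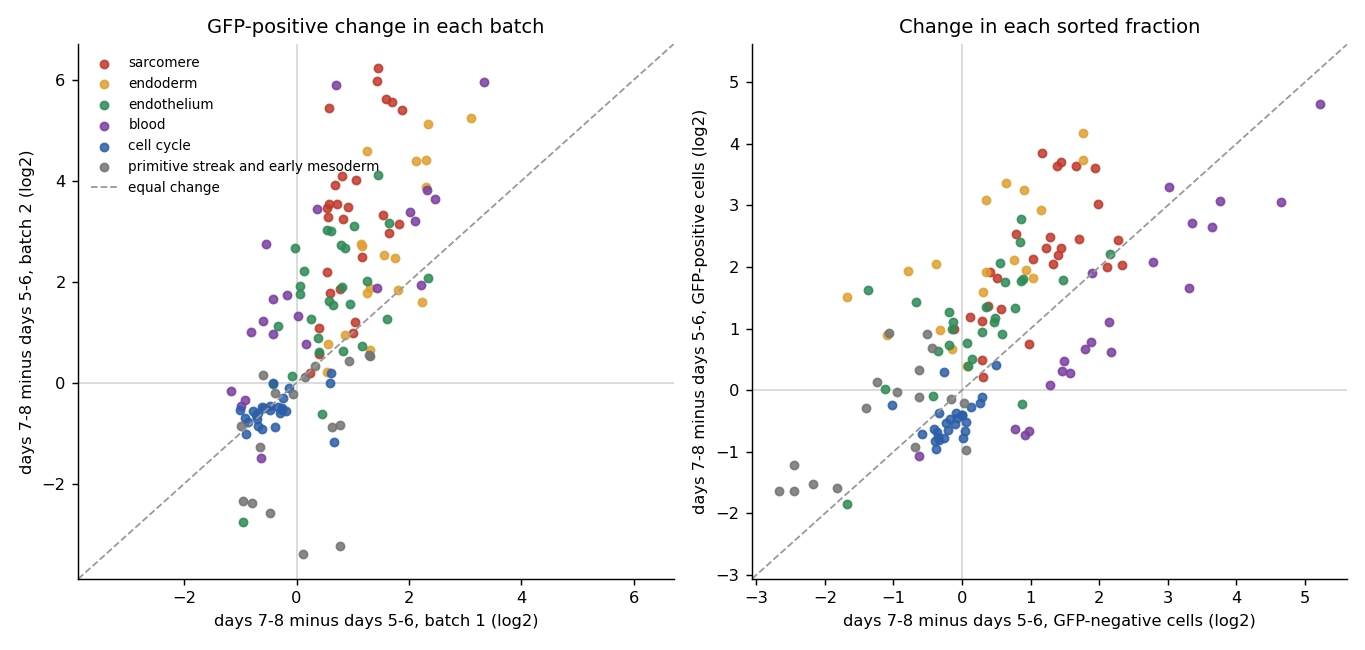
Log2 change from days 5 and 6 to days 7 and 8 of the members of 6 gene lists, left for batch 2 against batch 1 in GFP-positive cells, right for GFP-positive against GFP-negative cells, with the dashed line at equal change. Sarcomere genes (red) lie above the line on the left in 25 of 27, endoderm genes (orange) above it on the right in 18 of 18, and blood genes (purple) mostly below it on the right.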

How the data were processed

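Total RNA was amplified in 2 rounds from a T7 oligo dT primer before labelling, per the labels. What the authors deposited is MAS5 signal intensity, not log-transformed, made with GCOS 1.4 and MAS5 per the submitters' processing notes. The trimmed mean of each array (2% left out at each end) was 150.0008 to 150.0012 units. Groups, days and batches came from the sample titles.

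Of 45101 probe sets, 64 were controls, 9160 had no symbol and 932 had several, all left out. The platform annotation gave 34945 a single symbol, 34741 of which matched RefSeq by Entrez identifier, with 0 symbols changed. These covered 18193 genes, each represented by its probe set of highest mean. Probe sets with names ending in _x_at were used only where a gene had no other. A gene was tested where 2 or more of the 8 arrays reached 22.5 units, the overall median signal, which left 12372. The offset before log2 was 8.7, the 25th percentile. limma 3.58.1 in R 4.3.3 fitted stage with batch as a fixed term and a variance trend, leaving 5 residual degrees of freedom. P-values were adjusted by Benjamini-Hochberg over all genes tested, with a threshold of 0.05. The difference between fractions used 16 arrays (11 residual degrees of freedom) and that between batches the 8 (4), both on the genes that passed this filter. An added fit held each pair of fractions of 1 day and batch as a block.

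The labels say that the number marks a batch. Correlations of batch differences across genes were 0.42 between days 5 and 6, 0.29 between days 6 and 7 and between -0.02 and 0.06 for the other pairs of days. The fits were tested on simulated data.

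The 17 lists held 362 genes. Of these, 297 were tested, 53 did not reach the signal filter and 12 lacked a probe set matched to them alone. Genes were named by rule: Nkx2-5 and Myh6, the 15 largest and 15 smallest differences past the threshold with no overlap within a batch and a mean of at least 50, in each list as many as 6 passing members by lowest adjusted p, and the 3 with the lowest p between fractions. Other genes were chosen after their values were seen. The stages, lists and members were chosen with earlier results of these data known. Alternatives covered offset, scaling, filter, probe sets, variance trend, array weights, block, days, batches and each array. Plots used Python 3.11.15 and matplotlib 3.10.9.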

Additional observations from a re-analysis of the deposited data

Results flagged for a closer look

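Among 104 named genes, 1 array of a stage lay far from the other 3 in 13 of 208 groups of 4 arrays, and chance gives about 1 in 20 groups. Day 7 of batch 2 was the lowest late array in 8 of them. Its signals were 989 for Hbb-y, 1726 for Myh7, 68.3 for Hspa1a, 157 for Myom1, 21.8 for Ppargc1a, 35.9 for Apoc2, 258 for Apom and 2167 for Rbp4. The other 3 late arrays were at 3022 or more for Hbb-y and 932 or more for Hspa1a. Tgfb2 was 789.9 on day 8 of batch 2, above the other late arrays, which were between 667 and 669.

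On the early arrays, day 6 of batch 1 stood apart for Ccl3, at 111, and was lowest for Fgf15, at 151, and Rgs5, at 315. Vwf was lowest on day 5 of batch 2, at 17.6. What sets these arrays apart was not tested.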

How the results depend on the processing

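None of the 104 genes named by rule changed direction under any alternative, and 775 of their values were no longer past the threshold. They were chosen as past the threshold in these same arrays, so the kept direction is no support. Genes named outside the rule were not counted. Against 1770 calls, the count was 3879 with array weights, 3667 with equal array medians and 3431 with a linear trend over days. It was 17 in batch 2 alone and 0 for day 8 against day 5, where 3501 genes had an unadjusted p below 0.05. Without batch as a block the count was 1104, and with a random replicate block 941, so the pairing by batch moved it by over 1.5 times. Leaving out each of the 8 arrays gave 0 to 2645 calls. Between fractions the count was 0 without the block (1317 at an unadjusted p below 0.05), and leaving out each of 16 arrays gave 0 to 307. With day and batch pairs as a block, an alternative chosen after seeing the data, it was 214 (2724 at an unadjusted p below 0.05). Between batches it was 0 with an offset of 1 (669 at an unadjusted p below 0.05) and with quantile normalization (585). The other alternatives (offset, filter, probe sets, variance trend, quantile normalization, batch 1 alone, 16 arrays in 1 fit and 4 day means) gave 1187 to 2652 calls. Quantile normalization split 1589 calls into 838 higher and 751 lower. Signal close to background, with no detection calls used here, limits what can be said of dim genes.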

Other observations

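Other gene groups were chosen after their values were seen, as were the genes named in them except Hoxb1 and Hoxd1, so the values are a description. Of 28 genes of ribosome biogenesis and nucleotide synthesis, 19 were lower and 0 higher on days 7 and 8, with a median of -0.95 in GFP-positive and -0.55 in GFP-negative cells. Nolc1, a nucleolar phosphoprotein, was 2442 and 2748 on day 5, 2157 and 2747 on day 6, 1052 and 1851 on day 7 and 802 and 827 on day 8 and fell by 1.23 ± 0.23 on the log2 scale (adjusted p = 0.0249). Cad, which starts pyrimidine synthesis, fell by 1.23 ± 0.17 (adjusted p = 0.0249), and Myc, which activates such genes, fell by 1.39 ± 0.31 (adjusted p = 0.0289). Of 11 Hox genes tested, 2 were lower and 0 higher, beside 5.17% and 9.13% of all genes. Hoxb1 was 139 and 458 on day 5, 55.9 and 384 on day 6, 22.4 and 35.4 on day 7 and 33.6 and 31.5 on day 8 and fell by 2.39 ± 0.41 (adjusted p = 0.0249), while Hoxd1 differed by -1.75 (adjusted p = 0.0495).

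Of 18 interferon response genes, 13 were higher and 0 lower, with a median of 1.44 in GFP-positive and 1.83 in GFP-negative cells. Rsad2, an antiviral enzyme, was 25.8 and 4.7 on day 5, 94.8 and 8.6 on day 6, 329.5 and 99.0 on day 7 and 257 and 211 on day 8 and rose by 2.83 ± 0.40 (adjusted p = 0.0249). Of 8 antigen presentation genes, 5 were higher, B2m among them at 1.68 ± 0.36 (adjusted p = 0.0276). Of 17 macrophage genes, 10 were higher, with a median of 1.83 beside 2.69 in GFP-negative cells. Cx3cr1, a chemokine receptor of macrophages, was 4.8 and 7.7 on day 5, 32.3 and 1.4 on day 6, 119 and 38.5 on day 7 and 279 and 198 on day 8 and differed by 2.98 ± 0.53 (adjusted p = 0.0249). Of 20 lysosome genes, 8 were higher, with a median of 0.59. Ctsh, a lysosomal protease, changed by 1.99 in GFP-positive and -0.56 in GFP-negative cells.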
